A study of Homo sapiens with 6 samples.

Results

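The respiratory chain of mitochondria consists of complexes I to IV, and ATP synthase is often counted as complex V. The genes described here are the autosomal protein-coding genes of GENCODE 44 whose symbols start with NDUFA, NDUFB, NDUFC, NDUFS, NDUFV, SDHA to SDHD, UQCR, COX4 to COX8, ATP5F, ATP5M or ATP5P, together with CYC1. They were chosen by symbol, and no measured value entered the choice. The symbols took 99 genes, of which 94 (94.9%) had a promoter region, an open region that overlapped the 2 kb on either side of a transcription start site. Of the other 18666 autosomal protein-coding genes, 14874 (79.7%) had one. The genes held 104 of the 20094 promoter regions and of the 108542 open regions of the table. NDUFA1, NDUFB11 and COX7B lie on chromosome X and were left out.

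Accessibility was measured by ATAC-seq, in which the transposase Tn5 inserts adapters into open DNA, in EndoC-βH3, a line of human beta cells that carries immortalising transgenes and a tamoxifen-inducible Cre recombinase (CreER). The 3 senescent libraries came from cells given 4-hydroxytamoxifen (4-OHT) for 3 weeks, which activates CreER and so removes the transgenes, and the 3 non-senescent libraries from cells labelled control. Both groups carry the label WT for genotype and pancreatic beta cells for cell type, each library was made from 100000 cells, and a single line stands for beta cells here. Nothing in the labels says whether the libraries of a group came from separate cultures. The deposited table gives each region 1 mean over all 6 libraries beside the authors' own comparison of the groups, and that comparison was not used here. The values below therefore describe the cells of both groups together, with no value for a single library, no spread between replicates, and no test, and how the groups differed is not analysed here. The table does not give the depth of a library, of which the study states only a range for all samples. In bulk libraries, a region open in fewer cells and a region less open in each cell cannot be told apart.

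Complex I oxidises NADH, complex II oxidises succinate, and both pass electrons through ubiquinone to complex III, which hands them by way of cytochrome c to complex IV, where oxygen is reduced. Complexes I, III and IV pump protons across the inner membrane, and ATP synthase makes ATP as protons flow back. In beta cells the ATP made from glucose closes the ATP-sensitive potassium channel and so links glucose to insulin secretion. A few subunits of complexes I, III, IV and V are encoded in mitochondrial DNA, whose reads the authors removed, while the nuclear genes are spread over many chromosomes. Factors known to bind the promoters of these nuclear genes include NRF1, the ETS protein GABP, the estrogen-related receptors (ERR) and YY1.

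The promoter sequences are shown first. The set of RefSeq (GRCh38.p14) promoter sequences used here held 78 of the 99 genes by symbol. Each sequence covered 250 bases before the start of the gene and 50 after it. Absence from this set does not mean that RefSeq lacks the gene. Among the genes not matched were NDUFA4, NDUFA4L2, NDUFAF6, NDUFB5, NDUFB9, NDUFC2, NDUFS5, SDHC, CYC1, UQCRB, UQCRHL, COX4I2, COX6C, COX7A1, ATP5F1B, ATP5F1D, ATP5MC3, ATP5MF, ATP5MF-PTCD1 and ATP5MGL. The promoter of highest signal per kb in each complex is printed 5′ to 3′ on the strand of the gene. Each is the most open of its own complex by this scale, and many other genes of the set lay above SDHAF3. Capitals mark exact matches, on either strand, to the words searched for NRF1 (CGCATGCG), ERR (TCAAGGTCA), YY1 (AAGATGGC), ETS (CCGGAAGT), the cyclic AMP response element CRE (TGACGTCA) and the TATA box (TATAAA).
NDUFA11, complex I, chr19:5903741-5904040, minus strand: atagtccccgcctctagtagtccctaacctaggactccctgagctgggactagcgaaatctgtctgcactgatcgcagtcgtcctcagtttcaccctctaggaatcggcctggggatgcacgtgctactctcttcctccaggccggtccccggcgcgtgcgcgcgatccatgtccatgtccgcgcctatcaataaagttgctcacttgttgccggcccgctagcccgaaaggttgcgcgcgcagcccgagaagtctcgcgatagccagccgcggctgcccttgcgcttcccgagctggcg
SDHAF3, complex II, chr7:97117448-97117747, plus strand: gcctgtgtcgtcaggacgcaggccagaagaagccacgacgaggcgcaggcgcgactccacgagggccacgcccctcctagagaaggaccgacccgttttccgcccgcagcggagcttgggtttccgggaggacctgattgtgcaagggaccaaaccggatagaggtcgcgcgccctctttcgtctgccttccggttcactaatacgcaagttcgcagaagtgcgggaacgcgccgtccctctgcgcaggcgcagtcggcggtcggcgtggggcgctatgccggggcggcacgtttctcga
UQCRQ, complex III, chr5:132866392-132866691, plus strand: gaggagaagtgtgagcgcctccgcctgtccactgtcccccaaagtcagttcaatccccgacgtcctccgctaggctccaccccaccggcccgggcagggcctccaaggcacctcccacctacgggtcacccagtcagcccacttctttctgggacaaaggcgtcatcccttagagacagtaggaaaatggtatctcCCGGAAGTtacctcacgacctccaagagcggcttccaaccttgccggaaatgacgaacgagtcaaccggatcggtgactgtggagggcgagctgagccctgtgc
COX6A1, complex IV, chr12:120437863-120438162, plus strand: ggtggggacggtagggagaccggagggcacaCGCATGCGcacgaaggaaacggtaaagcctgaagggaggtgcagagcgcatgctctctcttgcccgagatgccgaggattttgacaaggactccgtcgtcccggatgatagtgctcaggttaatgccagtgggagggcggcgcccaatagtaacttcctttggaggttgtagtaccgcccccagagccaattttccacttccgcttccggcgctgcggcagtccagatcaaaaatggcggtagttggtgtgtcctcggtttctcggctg
ATP5MC1, complex V, chr17:48892537-48892836, plus strand: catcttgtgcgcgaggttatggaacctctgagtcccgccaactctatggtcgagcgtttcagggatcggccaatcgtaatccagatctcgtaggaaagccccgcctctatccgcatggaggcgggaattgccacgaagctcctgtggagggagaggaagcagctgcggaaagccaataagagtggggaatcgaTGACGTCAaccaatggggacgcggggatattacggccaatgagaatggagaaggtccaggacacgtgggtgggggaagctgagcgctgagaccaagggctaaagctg

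All 300 bases of each of these windows lay inside the open region of the gene. The windows of NDUFA11 and SDHAF3 held none of the 6 words in capitals. UQCRQ had the ETS word with its first base 54 bases before the start, COX6A1 the NRF1 word at 219 bases before it, and ATP5MC1 the CRE word at 57 bases before it. In GENCODE, 50 of the 300 bases of the SDHAF3 window were exon and the other 250 lay outside any protein-coding gene. Of the UQCRQ window, 204 bases lay in exons, 62 of them in exons of UQCRQ itself and the rest in exons of neighbours.

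A further promoter is printed because it held 3 of the 4 words for NRF1, ERR, YY1 and ETS, the highest number among the 78, and it was chosen after the counts were seen. It belongs to SDHD, which encodes a membrane anchor of succinate dehydrogenase.
SDHD, complex II, chr11:112086623-112086922, plus strand: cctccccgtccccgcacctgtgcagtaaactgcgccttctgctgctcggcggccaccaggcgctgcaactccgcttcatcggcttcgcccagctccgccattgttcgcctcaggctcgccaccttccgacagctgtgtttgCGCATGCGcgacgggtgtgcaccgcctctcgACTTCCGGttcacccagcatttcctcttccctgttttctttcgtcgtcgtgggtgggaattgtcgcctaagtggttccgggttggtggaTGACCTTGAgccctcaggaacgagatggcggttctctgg

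In the SDHD window the NRF1 word began 109 bases before the start and the ETS word, read on the other strand, 78 bases before it. The ERR word, also on the other strand, began at base 12 after the start and was the only ERR match among the 78 promoters. The window lay in the region chr11:112086082-112087285, which SDHD shares with TIMM8B, a chaperone gene of the mitochondrial intermembrane space on the opposite strand, whose start lies 75 bp from that of SDHD.

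Across all promoter regions, mean signal is the average over the libraries of the read counts scaled by the size factors of DESeq2, as deposited, and signal per kb is that mean divided by the width of the region. Each gene was given the values of its promoter region of highest mean signal. The 94 genes had a median mean signal of 978, against 840 for the 15399 other genes with a promoter region. On the scale of signal per kb, the medians were 854 and 684. Of the 94 genes, 63 lay above the median signal per kb of other genes, 24 lay above their upper quartile, 1120, and 11 under their lower quartile, 358. The range ran from 80.2 per kb for COX6B2, the testis form of a complex IV subunit, to 3444 per kb for NDUFA11. The genes were thus somewhat more open than other promoters as a set, and they varied by 42.9 times among themselves. The medians by complex were 820 per kb in complex I, 775 in complex II, 880 in complex III, 710 in complex IV and 1005 in complex V, all above that of other genes and close to each other beside the spread within each complex.

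**Figure D1:**
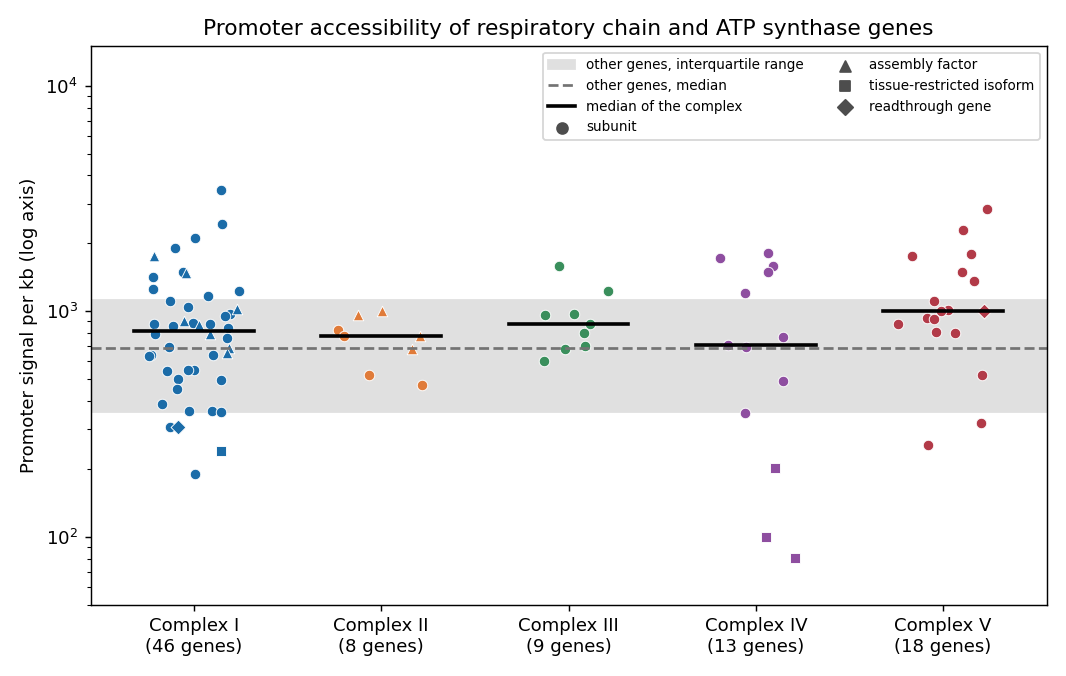
Signal per kb of the promoter region of 94 genes (log axis), by complex, with 1 point per gene and marker shape for its role; black bars are medians of the complex, and the dashed line and grey band are the median and interquartile range of 15399 other genes. The medians run from 710 to 1005, and the lowest points, under 250 in complexes I and IV, include the 4 tissue-restricted isoforms with a region.

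Complex I had 46 genes, and all of them had a promoter region. NDUFA11, a subunit of its membrane arm, had a mean signal of 4924 in the region chr19:5903707-5905137, or 3444 per kb, which was above 99.4% of other genes. NDUFV3, an accessory subunit of the NADH-oxidising module, had 2121 per kb and a mean signal of 2641. At the other end stood NDUFA9, an accessory subunit at the junction of the arms, with 189 per kb and a mean signal of 255. NDUFA4L2, the hypoxia-inducible relative of NDUFA4, had 239 per kb. NDUFC2, a membrane-arm subunit, had 306 per kb, and the readthrough gene NDUFC2-KCTD14 shared its region. NDUFA9, in the region chr12:4648241-4649590, was thus among the least open of the ordinary subunits of any complex, and its start lies 63 bp from that of AKAP3, which encodes a sperm protein, on the opposite strand.

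The core subunits of complex I carry out electron transfer and are the members conserved from bacteria. Among them NDUFS8 had 1489 per kb, NDUFV1 1113, NDUFS1 973, NDUFV2 954, NDUFS3 887 and NDUFS7 388. NDUFS1, NDUFV1 and NDUFV2 belong to the module that takes electrons from NADH, while NDUFS3, NDUFS7 and NDUFS8 belong to the module that passes them to ubiquinone. NDUFS7 was the lowest of them and lay under the median of other genes. The 29 other subunits had a median of 697 per kb, against 973 for the core subunits, and 15 of the 29 lay above the median of other genes. The ranges overlap and the sets are of unequal size, so this difference is a description.

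Assembly factors of complex I are not part of the finished enzyme. All 8 with the symbol NDUFAF had a region. NDUFAF3 had 1748 per kb and NDUFAF8 1476, while NDUFAF4 had 1021, NDUFAF2 906, NDUFAF5 865, NDUFAF1 790, NDUFAF6 687 and NDUFAF7, a methyltransferase, 654. NDUFAF6 had 6 promoter regions, the highest number among the genes. Its region of highest mean signal, 1609, is centred about 129152 bp before its canonical start, at a start site of a longer transcript and beside CCNE2, the gene of cyclin E2, on the other strand. The region over the canonical start was narrower and had a lower mean signal, 1335, but a higher signal per kb, 1560, so the value of NDUFAF6 depends on which of its start sites is meant.

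Complex II has 4 subunits, all nuclear. SDHB, the iron-sulfur subunit, had 822 per kb in the region chr1:17053812-17054656. SDHC, a membrane anchor, had 773 per kb in the region chr1:161313774-161315123. SDHD, the other anchor, had 522 per kb. SDHA, the flavoprotein that oxidises succinate, had 473 per kb. The order is partly one of width: SDHA lay in a wide region of 1914 bp, chr5:217646-219560, which it shares with CCDC127, and its mean signal of 904 was above the 694 of SDHB, whose region was 844 bp wide. The 4 subunits lay within a narrow range, with 2 above and 2 below the median of other genes. Of the assembly factors, SDHAF3 had 1001 per kb, SDHAF2, which helps to attach the flavin to SDHA, 960, SDHAF1 776 and SDHAF4 683. None of the 8 genes of complex II lay above the upper or under the lower quartile of other genes.

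Complex III had 10 genes, and 9 of them had a region. UQCRQ, a small subunit, was highest with 1582 per kb, followed by UQCR10 with 1223 and UQCR11 with 972, both small subunits too. UQCRC1 and UQCRC2, the core proteins, had 961 and 800 per kb, and UQCRB, a subunit near the ubiquinone site, had 880. UQCRH, the hinge protein that contacts cytochrome c1, had 698 per kb in a region 2207 bp wide. The catalytic subunits encoded in the nucleus stood lowest, with 677 per kb for CYC1, which is cytochrome c1, and 602 for UQCRFS1, the Rieske iron-sulfur protein. Their regions were wide, 1797 and 1676 bp, and by mean signal CYC1 with 1216 and UQCRFS1 with 1009 were not the lowest, UQCRC1 having 922. UQCRHL, an intronless copy of UQCRH, had no promoter region, and the nearest open region lay 15235 bp from its start.

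Complex IV had 16 genes, of which 13 had a region. COX6A1 was highest with 1810 per kb, then COX6B1 with 1713, COX8A with 1581 and COX5A with 1489. COX7A2L, found in supercomplexes of complexes III and IV, had 1207 per kb and 3 promoter regions. Its region over the canonical start had a mean signal of 1497, a second at a start site about 8706 bp before it had 1220 in 698 bp, or 1747 per kb, and the last, 237 bp wide, had 123. COX5B had 769 per kb, COX7C 710, COX7A2 696, COX4I1 490 and COX6C 355, the lowest of the widely expressed subunits of this complex. The 10 widely expressed subunits with a region had a median of 988 per kb, against 710 for all 13 genes, so the low median of complex IV came with its tissue-restricted isoforms.

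Several subunits of complex IV exist as a widely expressed form and a form known mainly from muscle, lung or testis. COX4I1, the regulatory subunit that binds ATP, had a mean signal of 1079, against 57.0 for COX4I2, its form of lung and of low oxygen. COX6B1 had 1108 and COX6B2 45.5, and per kb they stood at 1713 and 80.2, a ratio of 21.4. COX7A2 had 696 per kb and COX7A1, the form of heart and skeletal muscle, 99.9, a ratio of 6.97. COX6A2, the muscle form of COX6A1, and COX8C, the testis form of COX8A, had no promoter region, and their nearest open regions lay 14232 and 13508 bp away. For COX7B2, the testis form of COX7B, the nearest open region lay 8650 bp from its start. COX7B itself was left out, so that pair has no comparison. In the 5 pairs of complex IV with values for the widely expressed form, that form thus had the higher value, and the restricted form a low value or no region.

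Outside complex IV the pairs went the same way. NDUFA4, which carries a complex I symbol but is now placed in complex IV, had 795 per kb against 239 for NDUFA4L2, a ratio of 3.33. UQCRH had 698 per kb and its copy UQCRHL no region. The regions of the restricted genes, apart from that of COX7A1, also lay away from their canonical starts. The region of COX4I2, chr20:31638415-31638698, was 283 bp wide and began 504 bp after the canonical start, and that of COX6B2, chr19:55353555-55354122, began 597 bp after it. Both regions of NDUFA4L2 were centred before its canonical start, at about 3494 and 2088 bp. The farther of them, 1224 bp wide, lay over a start of another of its transcripts. The nearer had a lower mean signal, 187, but a higher signal per kb, 285. Only COX7A1, in the region chr19:36151290-36152606, 1316 bp wide, had its canonical start inside. Since COX4I2's region is narrow, its ratio to COX4I1 was 2.43 per kb but 18.9 by mean signal, so the size of that difference depends on the scale. The absence of a region says that the authors' peaks did not reach this window, and not that the DNA is closed in every cell.

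**Figure D2:**
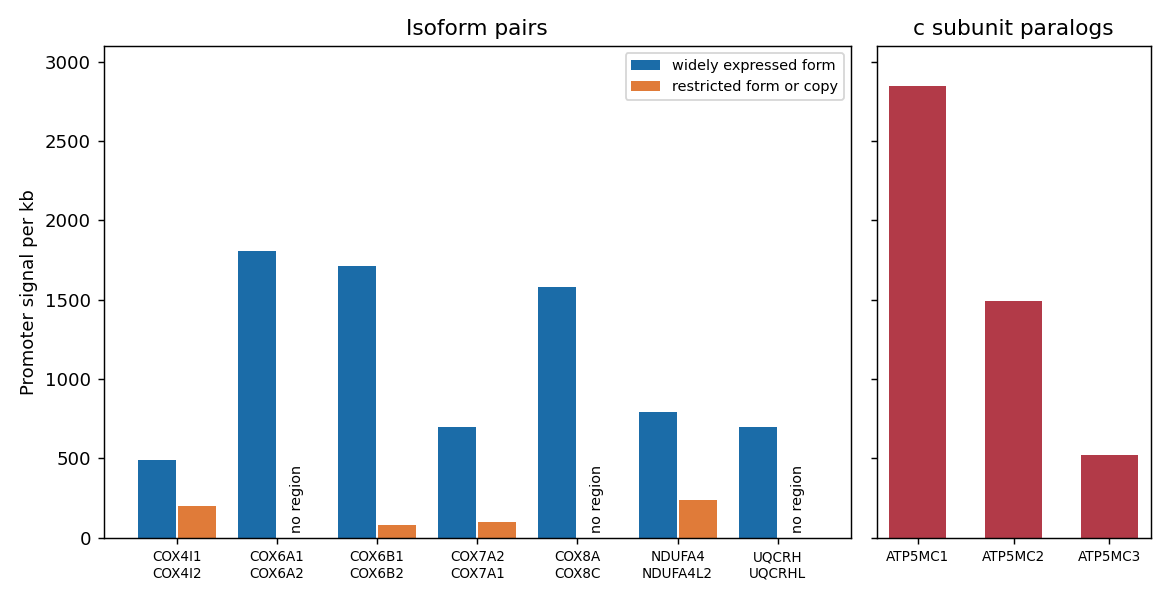
Left, signal per kb of the promoter region of the widely expressed form (blue) and the restricted form or copy (orange) in 7 pairs; right, the c subunit paralogs of ATP synthase. In the region that stands for each gene, no restricted form exceeds 239 per kb. For 3 of them there is no region, and the c subunit paralogs fall from 2846 to 522.

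Complex V had 19 genes and 18 with a region. Of the head, where ATP is made, and its central stalk, ATP5F1B, the catalytic beta subunit, had 2283 per kb, ATP5F1E, the epsilon subunit, 1752, ATP5F1A, the alpha subunit, 923, ATP5F1C, the gamma subunit, 802, and ATP5F1D, the delta subunit, 320. For ATP5F1A and ATP5F1D the region of highest mean signal was not the one at the canonical start. That of ATP5F1A, with a mean signal of 728, is centred 6241 bp before it, beside HAUS1, a gene of the mitotic spindle, and the region at the canonical start had 570, or 461 per kb. That of ATP5F1D lay 1043 bp from its nearest start, and the region at the start had a mean signal of 224 in 450 bp, or 498 per kb. These subunits thus differed by about 7.14 times in the signal per kb of their promoters, a factor that falls to 4.96 when ATP5F1A and ATP5F1D are read at their canonical starts.

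The peripheral stalk, which holds the head still, was the more even set. ATP5PD had 1791 per kb, ATP5PO, which links the stalk to the head, 1365, ATP5PF 1105 and ATP5PB 810, and all 4 lay above the median of other genes. ATP5PF shares its region with GABPA, which encodes the DNA-binding subunit of GABP, so the mean signal of 1838 belongs to both genes. Of the membrane part, ATP5MK had 1015 per kb, ATP5MF 1005, ATP5MJ 928, ATP5ME 881 and ATP5MG, the g subunit, 254, the lowest of the complex. The readthrough gene ATP5MF-PTCD1 shared the region of ATP5MF. ATP5MGL, a copy of ATP5MG, had no promoter region, and the nearest lay 4609 bp from its start.

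The ring of ATP synthase that turns with the proton flow is made of c subunits, which ATP5MC1, ATP5MC2 and ATP5MC3 encode as the same mature protein. ATP5MC1 had a mean signal of 3399 in the region chr17:48892075-48893269, or 2846 per kb, above 98.5% of other genes. ATP5MC2 had 1495 per kb and ATP5MC3 522, and ATP5MC1 stood 5.45 times above ATP5MC3. The widths of the regions, 1194, 1309 and 1172 bp, were close, so the order held by mean signal too.

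The open regions sat over the start sites. Of the 94 genes, 88 (93.6%) had the canonical start of GENCODE inside the region that stood for them, against 77.8% of other genes, and the middle of the region lay at a median of 8.25 bp before the start. Widths ran from 283 to 2489 bp with a median of 1176.5. In 91 genes the region overlapped the first exon of a transcript of the gene, and COX4I2 and ATP5F1D were those whose region touched none of their exons. In 87 genes the region was the only one at the promoter, 5 genes had 2, COX7A2L had 3 and NDUFAF6 had 6. A single promoter region was thus found in 92.6% of these genes, against 69.5% of other genes. The overlap with the first exon was not counted for other genes. It follows in large part from choosing regions near start sites.

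**Figure D3:**
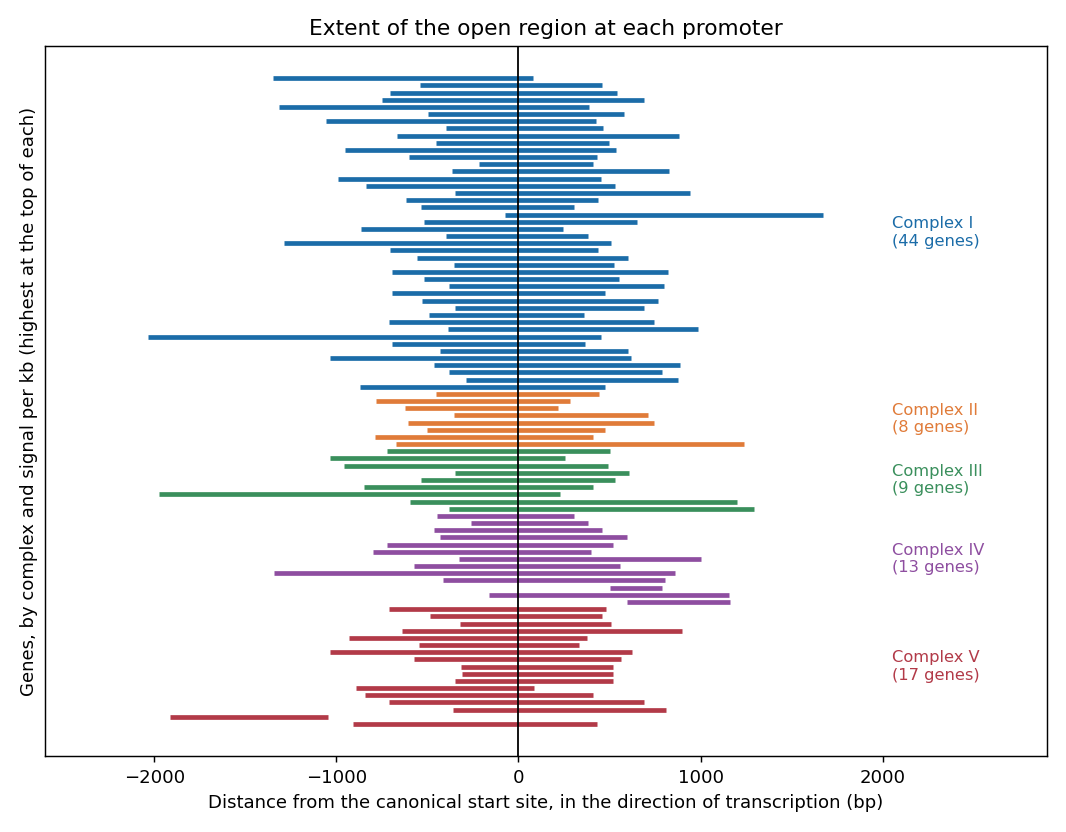
Extent of the region that stands for each of 91 genes, as distance in bp from the canonical start site in the direction of transcription; colours mark complexes, and within each the highest signal per kb is at the top. Nearly all bars cross the start at 0; ATP5F1D, COX4I2 and COX6B2 do not, and 3 genes whose region lies farther away are not drawn.

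Promoters with strong signal differ from weak ones in many ways, so each of the 92 distinct regions was set beside the 50 promoters of other genes nearest to it in rank of mean signal, 4600 picks of 3506 distinct regions. The median width was 1187 bp for the respiratory genes and 1216 bp for promoters of like signal. GC content was 59.8% against 62.6%, and the ratio of observed to chance-level CpG was 0.741 against 0.760. The start lay inside the region in 93.5% against 84.9%, and the region was the only one of its gene in 92.4% against 70.2%. At like signal the regions were therefore about as wide and as rich in CpG, somewhat lower in GC, and more often alone.

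A shared region was more frequent. The region of 38 of the 92 (41.3%) also lay within 2 kb of a start of a protein-coding gene on the opposite strand, against 21.3% of promoters of like signal. In complex I this held for 23 of 45 regions, 51.1% against 20.9%, and in complex V for 8 of 17, 47.1% against 26.4%. In complex II it held for 3 of 8 regions, 37.5% against 17.8%, and in complex III for 3 of 9, 33.3% against 22.0%. In complex IV the share was lower, with 1 of 13 regions, 7.69% against 18.0%, and that gene was COX4I1, which faces EMC8. The counts in complexes II, III and IV are too small to tell these shares from those at like signal. The partner's start lay within 300 bp of the canonical start in 28 of the 38, at a median of 165 bp. In a shared region the signal cannot be divided between the genes.

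Some of the partners also serve mitochondria. NDUFB5 faces MRPL47 at 145 bp and NDUFS6 faces MRPL36 at 41 bp, both genes of the mitochondrial ribosome, and SDHD faces TIMM8B. Others have general roles, such as RPS28, a protein of the cytosolic ribosome, opposite NDUFA7 at 121 bp, EEF1B2, a translation elongation factor, opposite NDUFS1 at 141 bp, and CPSF2, a factor of messenger RNA 3′ processing, opposite NDUFB1 at 263 bp. UQCRQ starts 5 bp from a start of GDF9, a growth factor of the oocyte. NDUFA11 faces VMAC at 1082 bp, 1 of 5 pairs in which the partner's start lay more than 1000 bp from the canonical start. For NDUFAF6, ATP5F1A and ATP5F1D, also among the 5, the shared region itself lies away from the canonical start. These partners were chosen to show the kinds of gene and were seen before they were named. Per kb, sharing did not go with a higher level within the set. The genes with a partner and those without one had medians of 854 and 851 per kb, while among other genes those medians were 923 and 620. By mean signal the medians within the set were 1014 and 929, and the shared regions were wider, 1271.5 against 1136 bp. The genes without a partner include the 4 tissue-restricted isoforms with a region.

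**Figure D4:**
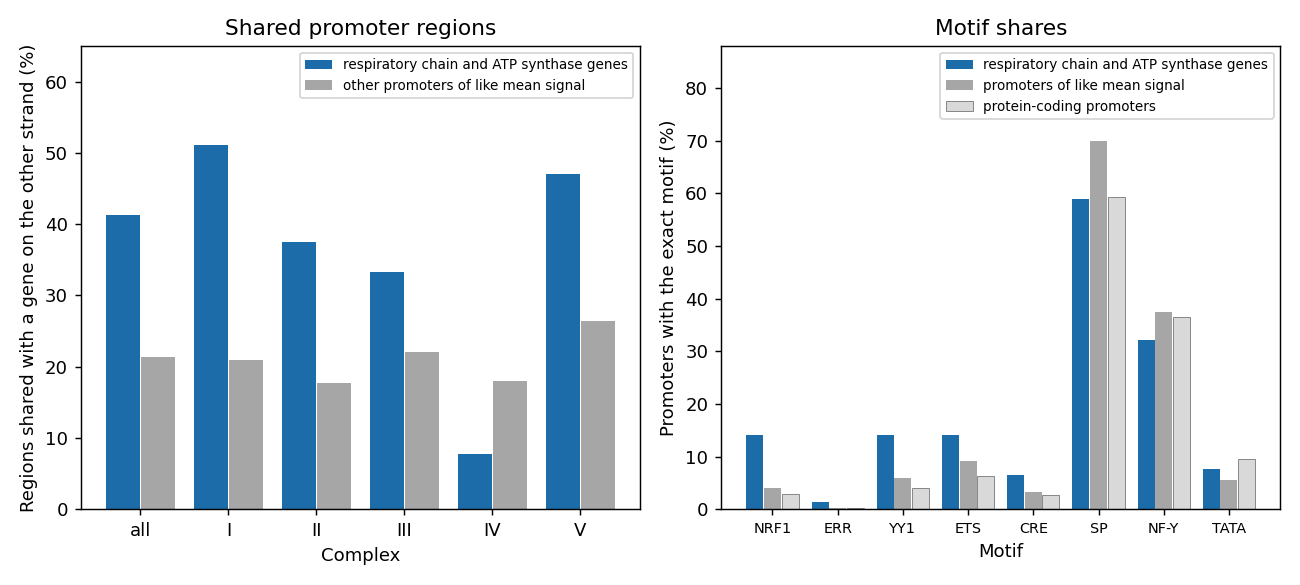
Left, percent of promoter regions shared with a protein-coding gene on the opposite strand, for respiratory chain and ATP synthase genes and for promoters of like mean signal, by complex; right, percent of promoters with an exact match to each word in members, promoters of like signal and all coding promoters. The share of shared regions is higher in all complexes but IV, though complexes II and III have only 3 such regions each and complex IV only 1. NRF1 and YY1 show 14.1% against 4.06% and 6.02%.

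In the promoter windows, 11 of the 78 matched genes (14.1%) held the NRF1 word, against 2.85% of 15307 protein-coding promoters and 4.06% of those of like signal. The YY1 word was also in 11 of 78 (14.1%), against 3.97% and 6.02%, and the ETS word in 11 (14.1%), against 6.31% and 9.15%. For CRE the shares were 6.41% (5 genes) against 2.65% and 3.21%, and for ERR 1.28% (1 gene) against 0.242% and 0.212%. The word for SP factors (GGGCGG) was in 59.0%, against 59.2% and 70.0%, that for NF-Y (CCAAT) in 32.1%, against 36.6% and 37.5%, and the TATA word in 7.69%, against 9.64% and 5.57%. NRF1 and YY1 words were thus about 3.47 and 2.34 times as frequent as at like signal in these windows. Of the general promoter words, SP was less frequent than at like signal. The NF-Y and TATA shares were near those at like signal, and the TATA word was in 6 genes. Among the 75 matched genes with a region, 5 (6.67%) held the TATA word. Matches of different words overlapped in 0 promoters of these genes. In the middle 300 bases of the open regions, the NRF1 word stood in 8.70% against 2.54% at like signal and the YY1 word in 12.0% against 4.61%, while ETS (7.61% against 7.11%), CRE (2.17% against 1.96%) and ERR (0% against 0.217%) were close to or below it. The TATA word was in 7.61% against 3.07% there, NF-Y in 30.4% against 26.8% and SP in 56.5% against 66.7%. A match is a run of letters and no measured binding, and factors also bind words that differ from these.

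The sites of the 11 NRF1 words are printed with 8 bases on either side, read in the direction of the word, which reads the same on both strands. They are shown because this word differed most from promoters of like signal among those found in more than 1 gene.
ATP5F1C, chr10:7788148-7788171, plus strand: agcttcggCGCATGCGcgctgagg
ATP5MC2, chr12:53676109-53676132, minus strand: ccgggtcaCGCATGCGctgagcct
ATP5ME, chr4:674338-674361, minus strand: gctgacggCGCATGCGtgcgccca
ATP5PF, chr21:25735158-25735181, minus strand: tcaaagagCGCATGCGtacagagc
COX6A1, chr12:120437886-120437909, plus strand: agggcacaCGCATGCGcacgaagg
NDUFA8, chr9:122159767-122159790, minus strand: gccggatgCGCATGCGcaggcgcc
NDUFAF5, chr20:13785017-13785040, plus strand: cgcgctggCGCATGCGcacaaaaa
NDUFB4, chr3:120596170-120596193, plus strand: gcacttcgCGCATGCGcatatcac
NDUFS6, chr5:1801354-1801377, plus strand: aagccgtgCGCATGCGttagcgct
NDUFS7, chr19:1383825-1383848, plus strand: ccggtttcCGCATGCGctccgagc
SDHD, chr11:112086756-112086779, plus strand: tgtgtttgCGCATGCGcgacgggt

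All 11 NRF1 words lay inside the open region of their gene, as did the YY1 words printed below. None of the NRF1 words began after the start, and among the 458 sites of other coding promoters only 7.64% did. First bases ran from 219 bases before the start in COX6A1 to 3 bases before it in NDUFA8 and NDUFAF5. By complex, the word was in 4 of 13 promoters of complex V (30.8%), 5 of 38 of complex I (13.2%), 1 of 7 of complex II, 1 of 13 of complex IV and 0 of 7 of complex III. The genes with the word had a median of 865 per kb and those without it 897, so within the set the word did not go with more signal.

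The 11 YY1 words are printed in the same way, since their place in the promoter differed from that of the NRF1 words.
ATP5PB, chr1:111449454-111449477, minus strand: gcaggaccAAGATGGCcgctcaca
ATP5PF, chr21:25735096-25735119, minus strand: gcgaagaaAAGATGGCggaggctg
ATP5PO, chr21:33915751-33915774, minus strand: cccgggagAAGATGGCtgccccag
NDUFA3, chr19:54102868-54102891, plus strand: cggagacaAAGATGGCtgcgagta
NDUFA6, chr22:42090732-42090755, minus strand: gctttggcAAGATGGCggggagcg
NDUFA7, chr19:8321346-8321369, minus strand: gcggacggAAGATGGCgtccgcca
NDUFA9, chr12:4649116-4649139, plus strand: tgtgggaaAAGATGGCggctgccg
NDUFS4, chr5:53560652-53560675, plus strand: cctgcagcAAGATGGCggcggtgt
NDUFS7, chr19:1383916-1383939, plus strand: ccgaggccAAGATGGCggtgctgt
SDHB, chr1:17054007-17054030, minus strand: caggagccAAGATGGCggcggtgg
UQCRC1, chr3:48609608-48609631, minus strand: gcagctggAAGATGGCggcgtccg

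Of the YY1 words, 10 of 11 read in the direction of the gene and 9 began after the start, with a median first base at 18 after it. Among the 622 sites of other coding promoters, 72.7% read in the direction of the gene and 61.3% began after the start. The genes with the word were 6 of 38 in complex I, 3 of 13 in complex V, 1 of 7 each in complexes II and III and 0 of 13 in complex IV. NDUFS7 and ATP5PF held both the NRF1 and the YY1 word. Counting NRF1, ERR, YY1 and ETS together, 48 of the 78 promoters (61.5%) held none, against 87.6% of protein-coding promoters. A single word was in 27 (34.6% against 11.4%), 2 words were in 2 (2.56% against 0.954%), and SDHD held 3 (1.28% against 0.0261%). These sums were not counted at like signal, where the words for NRF1, YY1 and ETS were each more frequent than in all protein-coding promoters. The ETS word was in ATP5MK, ATP5PD, COX5B, COX8A, NDUFA13, NDUFS1, SDHAF2, SDHD, UQCR11, UQCRH and UQCRQ, and so in 3 of the 7 promoters of complex III, and the CRE word in ATP5MC1, ATP5ME, NDUFA10, NDUFB2 and SDHB.

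Genes that work with the chain but carry other symbols had similar values. CYCS, which encodes cytochrome c, had 2260 per kb, and ATP5IF1, the inhibitor of ATP synthase, 895. All 37 assembly factors outside the rule had a promoter region, with a median of 871 per kb, and 25 of them lay above the median of other genes. COX14, an assembly factor of complex IV, was highest with 3860 per kb, and SURF1, which is mutated in Leigh syndrome, lowest with 320. Of the 13 regulators, all had a region and 9 lay above the median of other genes, their own median being 934 per kb. TFB1M, a mitochondrial rRNA methyltransferase, was highest with 1878 and ESRRB lowest with 90.3. Among the regulators whose words were searched, NRF1 had 767 per kb, GABPA 1105, ESRRA 1068, ESRRG 1637 in the highest of its 8 promoter regions, and YY1 1499. The coactivators PPARGC1A and PPARGC1B had 432 and 256 per kb, below the median of other genes.

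The cell type label was checked on markers. All 14 beta cell markers had a promoter region, with a median of 1307 per kb, the lowest being IAPP with 435, and 10 of them lay above the median of other genes. Of 19 markers of other cell types, 12 had a region, and 9 of the 12 lay under the median of other genes. GCG of alpha cells had 140 per kb and SST of delta cells 171, while PRSS1, CFTR, COL3A1, PDGFRB, CDH5, PTPRC and CD3E had no promoter region. IRX2, CPA1 and KRT19 were the exceptions, with 771, 1298 and 737 per kb. The median of the respiratory genes, 854 per kb, stood below that of the beta cell markers.

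**Figure D5:**
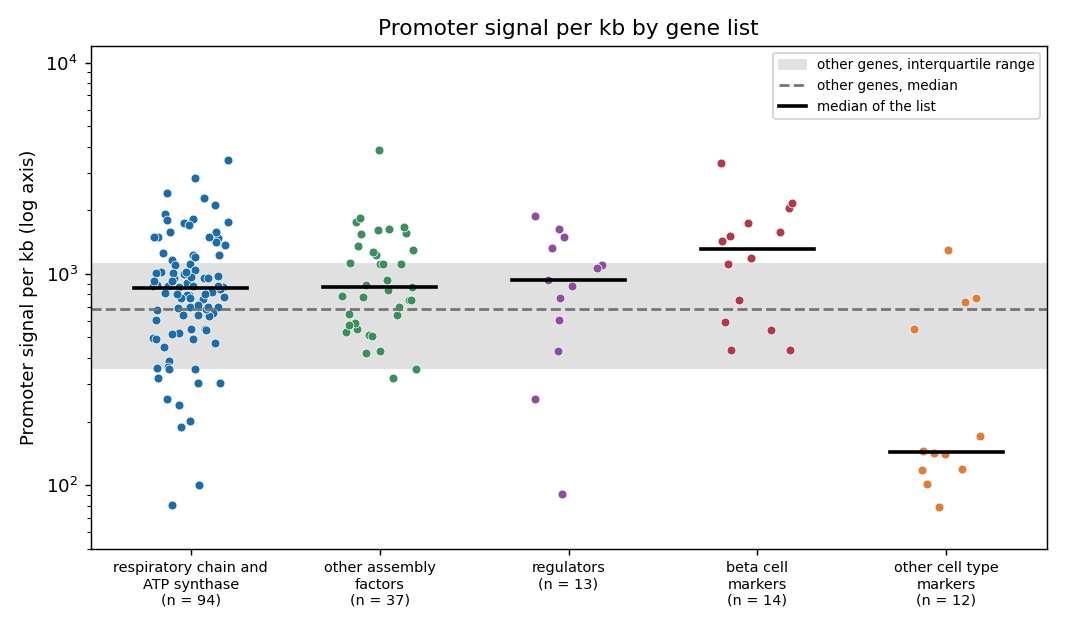
Signal per kb (log axis) of the promoter region, with 1 point per gene, for the 94 respiratory chain and ATP synthase genes, 37 other assembly factors, 13 regulators, 14 beta cell markers and 12 markers of other cell types; black bars are list medians, and the line and band are the median and interquartile range of other genes. The first 4 lists have medians from 854 to 1307, above the line, and most other markers lie well under it.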

How the data were processed

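ATAC-seq libraries of EndoC-βH3 cells, 3 non-senescent and 3 senescent, were grouped by the treatment in the labels. According to its methods, the study used Trim Galore for trimming, Bowtie2 for alignment to hg38 and MACS2 for peaks. Duplicates and reads from mitochondrial DNA had been dropped, and read ends moved for the Tn5 offset, as is usual for ATAC-seq. Reads were then counted over the merged peaks, and the authors compared the groups with DESeq2. Whether peaks were found per library, and tool versions, are not given in the sources used here. The signal used here is the authors' mean of size-factor-scaled counts over all 6 libraries, as deposited. The other 5 columns hold the authors' comparison (log2 fold change, its standard error, Wald statistic, p-value and adjusted p-value) and were not used, so no group was compared with another and no test was run. 0 columns hold a value for a single library. A wide region gathers more reads, so genes were compared per kb.

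Start sites were those of protein-coding transcripts in GENCODE 44. Promoter regions overlapped 2 kb on either side, and that of highest mean signal stood for the gene. Region coordinates are printed as the table gives them (hg38), and those of sequences count from 1. Chromosome ends of the reference were exceeded by 0 regions. Promoter windows came from RefSeq (GRCh38.p14), were checked against hg38 where printed, and were searched for 8 exact words on both strands. For 69 of the 78 genes matched, the RefSeq start lay within 50 bp of the canonical one. For 4 it lay more than 1000 bp away. The window of COX7A2, at 6497 bp, lay outside the region that stood for that gene. Promoters of like signal were the 50 nearest in rank. Named genes were the 3 highest and 3 lowest per kb in each complex, SDH subunits, isoform pairs, genes without a region, genes with 3 or more and, beyond that rule, those listed by role, which were named after their values were seen. Values of 2 of the genes counted are not reported here. The members and lists were chosen with earlier results of these data known. Scripts were tested on simulated data and run with Python 3.11.15, pandas 2.3.3, numpy 2.4.6, pysam 0.24.0 and samtools 1.23.1.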

Additional observations from a re-analysis of the deposited data

How the results depend on the processing

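Promoter windows of 1 and 0.5 kb, start sites of every transcript, and a mean signal of at least 50 were tried. Assembly factors were also left out, and the region was chosen in other ways. The medians and counts stayed within 1.5 times, as did the width with 20 or 200 neighbours. The number of genes with a region ran from 82 (without the 12 assembly factors) to 94 and the median from 833 to 864 per kb. Those 82 still hold readthrough genes and tissue-restricted isoforms. In the middle 300 bases of the region, which is another window and a larger set of genes, the share of promoters with the word was 0% for ERR, 7.61% for ETS and 2.17% for CRE. In the promoter windows these 3 shares were 1.28%, 14.1% and 6.41%, and that of ERR rests on 1 gene. The NRF1 share, 8.70% there against 14.1%, moved by more than 1.5 times. No paired analysis was possible because each region carries a pooled mean alone. For the same reason no replicate could be left out, and the depth behind each value, which limits how small a promoter signal can be seen, cannot be read from the table.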
